A study of Mus musculus with 28 samples.

Results

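The collagens, laminins and other matrix proteins of basement membranes were followed in 27 single cells picked as Müller glial cells (MGCs) from mouse retinas. Genes were chosen by symbol: every collagen chain (Col, a number, a and a number), every laminin alpha, beta or gamma chain, the nidogens Nid1 and Nid2, and Fn1, Sparc, Sparcl1, Hspg2 and Agrn. This gave 59 of the 18194 genes that could be read from probe sets carrying only 1 symbol, with 115 such probe sets. Col28a1 and Col6a6 were not analysed here.

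Basement membranes are thin sheets of matrix in which a network of laminin heterotrimers and a network of type IV collagen are joined by nidogens and by heparan sulphate proteoglycans such as perlecan (Hspg2) and agrin (Agrn). In the retina they line the blood vessels, where endothelial cells and pericytes deposit them, and they form the inner limiting membrane, on which the endfeet of MGCs rest. The vitreous next to that membrane is a gel of type II collagen fibrils coated with type IX collagen, while SPARC and SPARC-like 1 are secreted proteins that bind collagen.

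Cells were collected in 6 conditions. Adult wild-type (WT) C57/BL6 retinas gave 5 cells, and rhodopsin-deficient Rhod-ko retinas of the same strain 5 cells each at 8 and 25 weeks, the study's times of rod and of cone death. The labels give the adult WT mice as over 25 weeks old, while the study's text sets only a much lower limit, so that the Rhod-ko 8 weeks and adult WT cells may differ in age too. Retinas with the rd1 mutation of the rod phosphodiesterase gene Pde6b on the FVB strain gave 5 cells at postnatal day 13 (P13) and 4 at 5 weeks, and congenic FVB retinas without the mutation gave 3 cells at P13. All cells came from papain-dissociated retinas, were chosen under the microscope by shape, and were amplified by 35 cycles of PCR. The rd1 conditions thus differ from adult WT in strain as well as in genotype, and the P13 cells differ from all others in age.

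No animal was named for any cell, so the cells of a condition count as 1 sample, and neither conditions nor cell classes were tested against each other. In rd1 at 5 weeks, the arrays A5 and A6 agreed far more closely than any other pair (Pearson r = 0.989 over probe sets on the log2 scale, against 0.764 for the next of 377 other pairs) and were averaged to 1 cell. The values are MAS5 signals, a linear scale set to a trimmed mean of 500 on every array, and genes with signals of 2000 or more are called on. Between 1847 and 3208 genes were on per cell. The number of arrays limits the precision, and the depth behind a signal is unknown. Signals of different genes come from different probes and were not set against each other.

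Not every picked cell carried the markers of MGCs. In 5 cells, all 3 from congenic FVB (A3, A4, A5) plus A1 and B1 of rd1 P13, 16 to 19 of 19 endothelial markers were on, among them Cldn5, Cdh5, Tek and Esam in every one, against 3 to 8 of 19 MGC markers. These 5 are called endothelial-like below. The other 22 cells had 1 to 4 endothelial and 12 to 19 MGC markers on and are called Müller-like. No collagen, laminin or other gene described here was in either marker list. Pericyte and mural markers reached at most 2 of 10 in any cell, and their summed signal was 597 to 5338 in endothelial-like and 736 to 23963 in Müller-like cells. In endothelial-like cells the pericyte genes Rgs5, Cspg4 and Kcnj8 did not exceed 98.1, 132 and 69.2. Another marker of this list was on in congenic FVB A4 (sum 4841) and in rd1 P13 B1 (sum 5338), so mural signal was not absent from these cells. Fibroblast markers reached at most 2 of 8 in any cell, with sums of 466 to 2786 and 438 to 34905. Rod markers were on in all 8 P13 cells of both classes, 6 to 10 of 13, and in Rhod-ko 8 weeks cells 7 and 8 (9 and 8), while the other cells had at most 4. Cell 7 also had 6 of 13 microglial markers on, against at most 1 elsewhere.

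Sequences at the transcription starts of 4 genes are shown because these genes separated the cell classes without overlap below. They come from RefSeq (GRCm38.p6), in which 42 of the 59 genes had a promoter window. Nid1 and Col9a1 were chosen for display after their values were seen. Col4a1 and Col4a2, which encode the chains of the common type IV collagen, lie head to head on chromosome 8 and are read from opposite strands. Counted from the starts used for their windows, they overlap by 22 bases. The whole Col4a1 gene is listed further, up to 11312889. The shared stretch is shown with its 1 match to GGGCGG in capitals. It is chr8:11312805-11312826 on the plus strand and holds the first transcribed bases of both genes, counted from these starts.

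Col4a1 and Col4a2 shared start: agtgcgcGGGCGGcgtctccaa

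The windows were searched on both strands for GGGCGG, the core of the GC box, for CCAAT and for TATAAA. In the 250 bases before its start, Col4a1 held 1 match, to CCAAT on the opposite strand at -145, counted from the start, and Col4a2 held GGGCGG at -192, its reverse complement at -48 and CCAAT at -32. Nid1 held 2 matches in chr13:13437352-13437601 on the plus strand, shown in capitals: ATTGG, the reverse complement of CCAAT, at -91, and GGGCGG at -67. Most of that window also lies in the predicted gene Gm7426, which ends at 13437551.

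Nid1: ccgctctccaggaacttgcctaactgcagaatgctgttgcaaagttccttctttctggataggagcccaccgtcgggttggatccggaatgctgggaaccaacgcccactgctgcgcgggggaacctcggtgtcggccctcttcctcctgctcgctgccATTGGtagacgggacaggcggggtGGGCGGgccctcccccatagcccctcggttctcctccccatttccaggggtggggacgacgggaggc

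Col9a1, which encodes a chain of type IX collagen, has 2 listed starts 17593 bases apart on chromosome 1. The window before the first, chr1:24177360-24177609 on the plus strand, held none of the 3 motifs, and that before the second, chr1:24194953-24195202 inside the gene, held CCAAT (in capitals) at -18. The whole gene is listed from 24177589, so the end of the first window also lies in it.

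Col9a1, first start: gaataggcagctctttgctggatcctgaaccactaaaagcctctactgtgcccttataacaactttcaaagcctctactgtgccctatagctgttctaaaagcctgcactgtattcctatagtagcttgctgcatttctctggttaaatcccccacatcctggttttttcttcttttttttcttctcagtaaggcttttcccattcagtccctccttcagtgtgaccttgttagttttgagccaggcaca
Col9a1, second start: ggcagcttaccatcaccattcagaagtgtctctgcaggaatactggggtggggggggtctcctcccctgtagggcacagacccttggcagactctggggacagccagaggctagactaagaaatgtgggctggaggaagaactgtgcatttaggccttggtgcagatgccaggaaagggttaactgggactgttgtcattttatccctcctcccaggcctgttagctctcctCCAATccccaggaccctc

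Over the windows of all 59 genes, 27 of 47 (57.4%) held GGGCGG, compared with 32.7% of the 32851 windows in the reference. CCAAT stood in 15 of 47 (31.9%, against 33.8% in all windows) and TATAAA in 5 of 47 (10.6%, against 12.4%). A match is a run of letters and no measured binding site.

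Of the 59 genes, 41 (69.5%) were on in at least 1 cell, compared with 57.8% of all genes, and 23 (39.0%) in at least 3 cells, compared with 39.2%. The 18 that were on in no cell were Col3a1, Col4a3, Col4a4, Col6a2, Col6a4, Col6a5, Col8a2, Col10a1, Col11a1, Col12a1, Col13a1, Col14a1, Col15a1, Col17a1, Col24a1, Col25a1, Col26a1 and Lamc3. By role, all 5 laminin alpha chains, all 3 beta chains, both nidogens, both proteoglycans and all 3 of Fn1, Sparc and Sparcl1 were on somewhere, compared with 2 of 6 chains of the type VI group and 1 of 4 transmembrane collagens. The endothelial-like cells had 12, 14 and 13 of the genes on in A3, A4 and A5 of congenic FVB and 15 and 16 in rd1 P13 cells A1 and B1. Müller-like cells had between 1 (adult WT MG1) and 13 (rd1 5 weeks A1), with a median of 7.5, so that both classes overlapped in this count. Of all genes, 2927 to 2998 were on in the endothelial-like cells and 1847 to 3208 in the Müller-like cells. The highest of these numbers was that of rd1 5 weeks A1. The part of this spread in the counts was not tested.

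**Figure D1:**
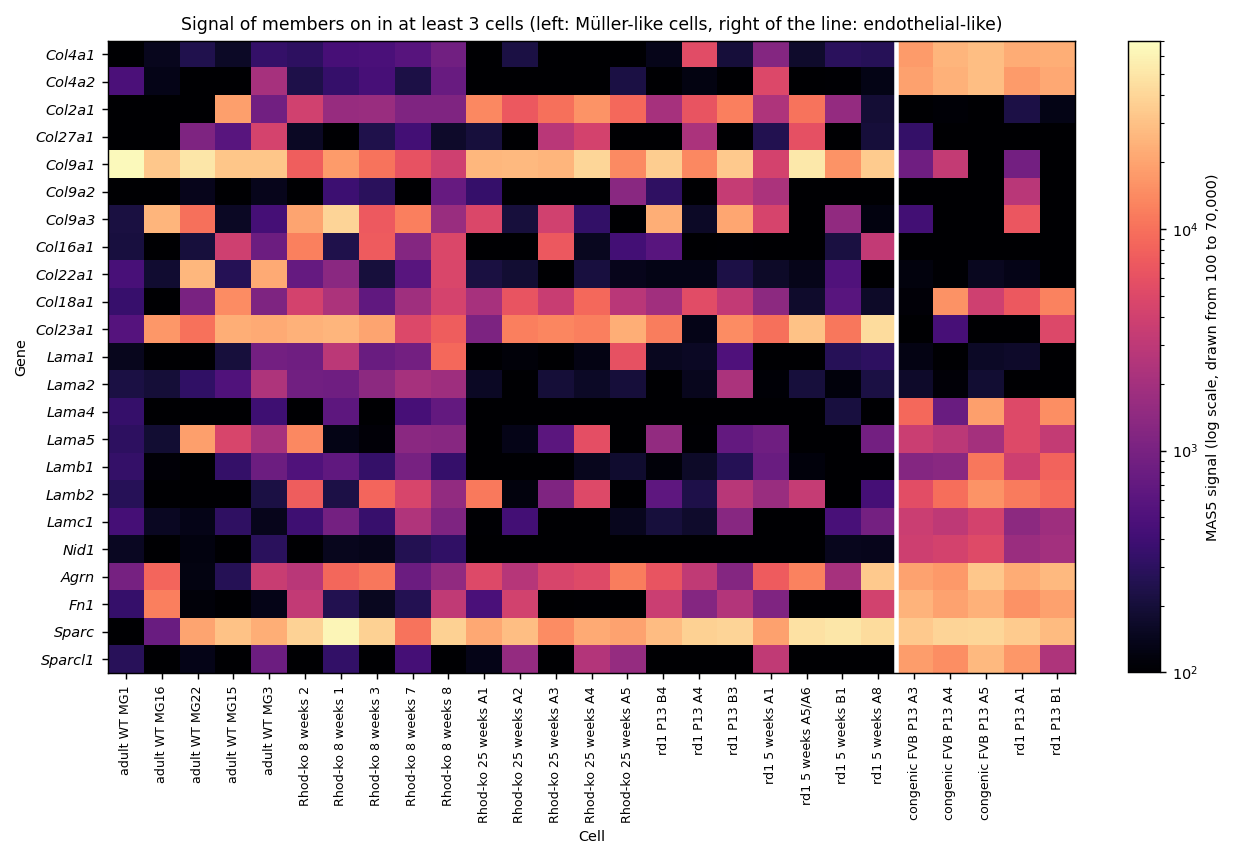
MAS5 signal (colour, log scale) of the 23 genes that were on in at least 3 of 27 cells, with 1 column per cell and 1 row per gene ordered by role. The 5 endothelial-like cells to the right of the white line are bright for Col4a1, Col4a2, Fn1, Nid1 and Sparcl1, and the 22 Müller-like cells to its left are bright for Col9a1 and most of them for Col23a1.

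**Figure D2:**
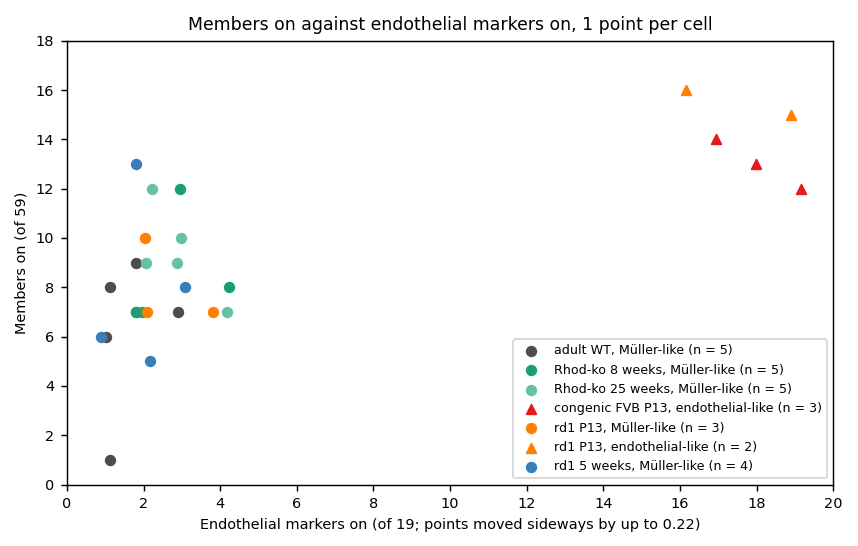
Number of endothelial markers on (of 19, x axis) and of collagen, laminin and basement membrane genes on (of 59, y axis) in each cell. Triangles are the 5 endothelial-like cells, with 16 to 19 markers and 12 to 16 genes on, and circles the 22 Müller-like cells, with 1 to 4 markers and 1 to 13 genes on. The number of all genes on also differed between cells and is not shown.

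The endothelial-like cells were set against the Müller-like cells gene by gene. After flooring at 1000, the median was at least 2-fold higher for 12 of 59 genes (all genes 8.41%), namely Col4a1, Col4a2, Col18a1, Lama4, Lama5, Lamb1, Lamb2, Lamc1, Nid1, Agrn, Fn1 and Sparcl1. It was at least 2-fold lower for 4 of 59 (all genes 2.77%), namely Col2a1, Col9a1, Col9a3 and Col23a1. For 6 of 59 genes (10.2%, all genes 0.594%) the median was at least 2-fold higher and every endothelial-like cell lay above every Müller-like cell. For 1 of 59, Col9a1 (1.69%, all genes 0.17%), it was at least 2-fold lower and every such cell lay below. The separation used signals without the floor, and the 2-fold rule used medians floored at 1000. For Lama4, 1 of the 6, the separation lay under the floor (791 against 700.1). The median difference over the 59 genes and over all genes was 0, since 41 of the 59 had both medians at or under the floor. All 5 endothelial-like cells were P13 cells of the FVB strain, so over all cells class cannot be told apart from age and strain. With only the 3 Müller-like rd1 P13 cells as the reference, a choice made after seeing the data, the counts were again 12 and 4. The shares of all genes were not computed for this reference. The endothelial-like side still mixed congenic FVB and rd1 cells.

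**Figure D3:**
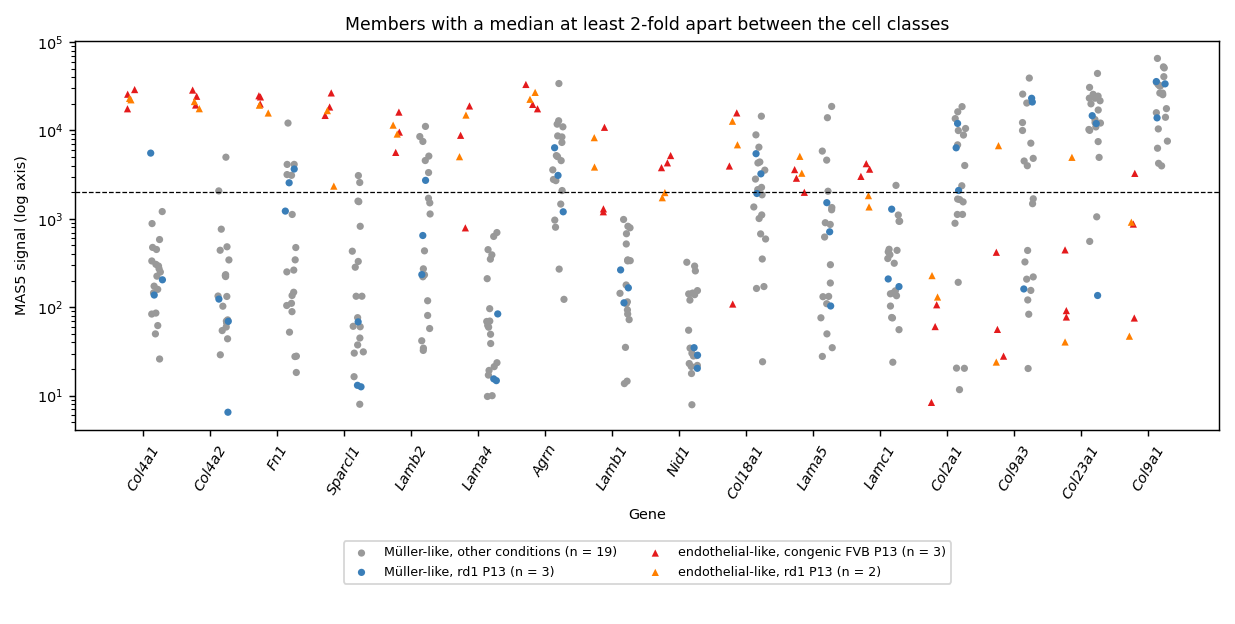
MAS5 signal (log axis) of the 16 genes whose medians were at least 2-fold apart between the classes, with 1 point per cell; triangles are endothelial-like cells, circles Müller-like cells, and the dashed line marks a signal of 2000. Col4a1, Col4a2, Fn1, Lama4, Lamb1 and Nid1 do not overlap between the classes, nor does Col9a1, which is lower in the endothelial-like cells.

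The type IV collagens Col4a1 and Col4a2 did not overlap between the classes. Signals are given in the order A3, A4, A5 for congenic FVB and then A1, B1 for rd1 P13, and elsewhere from low to high. Col4a1 read 17579, 25691 and 28987 in congenic FVB and 22197 and 23042 in rd1 P13 cells, and 26.0 to 5542 (median 238) in the 22 Müller-like cells. Its only Müller-like cell on was rd1 P13 A4 at 5542. The median was at least 23.0-fold higher in the endothelial-like cells, with an SD of 0.27 against 0.53 (log2, floored).

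Col4a2 read 19383, 24335 and 28599.7 in congenic FVB and 17612 and 21228 in rd1 P13 cells, against 6.5 to 4982 (median 128). Adult WT cell MG3 (2071) and rd1 5 weeks cell A1 (4982) were the 2 Müller-like cells on, and neither had Col4a1 on. The median was at least 21.2-fold higher in the endothelial-like cells. Both genes were thus on in 5 of 5 endothelial-like cells (exact 95% interval 47.8 to 100%, counting error only), and in 1 and 2 of 22 Müller-like cells (0.115 to 22.8% and 1.12 to 29.2%). The other chains of this group build the type IV networks of kidney, lung and eye lens capsule. Of these Col4a5 was on in Rhod-ko 25 weeks A1 (2460.4) and rd1 5 weeks B1 (2117), Col4a6 in rd1 5 weeks A1 (4873), and Col4a3 and Col4a4 in no cell.

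Of the laminin chains, Lama4, Lama5, Lamb1, Lamb2 and Lamc1 had higher medians in the endothelial-like cells. Lama4, the alpha chain of an endothelial laminin, read 8811, 791 and 18917 in congenic FVB and 5048 and 14928 in rd1 P13 cells and 9.8 to 700.1 (median 60.9) in Müller-like cells. It was on in 4 of 5 and 0 of 22 cells; congenic FVB cell A4 was the one under 2000, yet still above all Müller-like cells. Lama5, an alpha chain of most adult basement membranes, read 3607, 2882 and 1997 in congenic FVB and 5095 and 3282 in rd1 P13 cells. It also reached 18679.8 in adult WT MG22 and 13933 in Rhod-ko 8 weeks cell 2, so the classes overlapped; it was on in 4 of 5 against 5 of 22 cells.

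Lamb1, the most widely used beta chain, read 1203, 1297 and 10852 in congenic FVB and 3854 and 8285 in rd1 P13 cells, and no Müller-like cell exceeded 984. Lamc1, the gamma chain of most laminins, read 3647, 3023 and 4207 in congenic FVB and 1364 and 1831 in rd1 P13 cells. Its Müller-like signals ran from 23.9 to 2391 (median 262), and Rhod-ko 8 weeks cell 7, the cell with 6 microglial markers on, was the only one at or above 2000. Lamb2, a beta chain of vascular and synaptic laminins and of the inner limiting membrane, read 5646, 9569 and 16123 in congenic FVB and 11483 and 9101 in rd1 P13 cells. It was on in 7 of 22 Müller-like cells too, at up to 11105. The median difference was at least 8.81-fold for Lama4, 9.57-fold for Lamb2, 3.85-fold for Lamb1, 3.28-fold for Lama5 and 3.02-fold for Lamc1. With a floor of 2000 in place of 1000 the differences of Lama5, Lamb1 and Lamc1 were 0.71, 0.95 and 0.60 on the log2 scale, under 2-fold. Without congenic FVB A5 or rd1 P13 B1 the Lamb1 difference was 1.16 in place of 1.95.

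The remaining laminin chains were on in at most 3 cells each, too few to compare the classes. Lama1, the alpha chain of the inner limiting membrane and of early embryonic laminin, was on in 3 cells, all Müller-like: Rhod-ko 8 weeks cells 1 (2870.4) and 8 (8903) and Rhod-ko 25 weeks A5 (6018). Lama2, the alpha chain of muscle and brain laminins, was on in adult WT MG3 (2363), rd1 P13 B3 (2249) and Rhod-ko 8 weeks cell 7 (2101), all near the threshold. Lama3 and Lamb3, chains of the epithelial laminin of skin, were on in 2 endothelial-like cells (2717 in congenic FVB A4 and 2123 in rd1 P13 B1) and in 1 Müller-like cell (7554 in adult WT MG16).

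Nidogen 1, the protein that bridges laminin and type IV collagen, read 3793, 4302 and 5200.2 in congenic FVB and 1734 and 1983 in rd1 P13 cells. No Müller-like cell exceeded 323, and the median was at least 3.79-fold higher in the endothelial-like cells. The rd1 P13 cells lay just under the threshold, so that Nid1 was on in 3 of 5. With a floor of 2000 the Nid1 difference was 0.92 on the log2 scale, under 2-fold. Nidogen 2 was on in congenic FVB A5 alone (2564). Its highest Müller-like signal, 1944, lay above the endothelial-like median of 1070.3.

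The 2 basement membrane proteoglycans differed in their spread. Agrin, also known as the organizer of acetylcholine receptors at the nerve-muscle synapse, was on in all 5 endothelial-like cells, at 19704, 17573 and 33122 in congenic FVB and 22499 and 26942 in rd1 P13 cells. It was on in 16 of 22 Müller-like cells as well (123 to 33929.8 (median 4067)), where rd1 5 weeks A8 lay above every endothelial-like cell. The median was 5.57-fold higher in the endothelial-like cells, with overlap. Perlecan (Hspg2) was on only in the 2 endothelial-like rd1 P13 cells, at 2509.9 in A1 and 4858 in B1, and did not exceed 723 in the congenic FVB cells.

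Fibronectin (Fn1), a matrix glycoprotein that binds integrins and collagen, read 24678, 19912 and 23937 in congenic FVB and 15747 and 19303 in rd1 P13 cells. All 5 endothelial-like cells lay above the highest Müller-like cell, adult WT MG16 at 12117. It was on in 7 of 22 Müller-like cells, and the median was at least 19.9-fold higher in the endothelial-like cells. Against the Müller-like P13 cells alone, 2 of which were on for Fn1, the difference was 2.96 on the log2 scale in place of 4.32.

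The 2 SPARC genes went separate ways. Sparc was on in 25 of 27 cells. It read 33644, 39726 and 39902 in congenic FVB and 34614 and 27345 in rd1 P13 cells, all endothelial-like, and 68.2 to 62890.4 (median 28398) in the Müller-like cells. The medians were 1.22-fold apart, under the rule of size, and the classes overlapped. The 2 cells without it were adult WT MG1 (68.2) and MG16 (776). Sparcl1, known from brain astrocytes and from high endothelial venules, read 18414, 14785 and 26565 in congenic FVB and 16758 and 2346 in rd1 P13 cells, with rd1 P13 B1 far below the other 4. Of the Müller-like cells only Rhod-ko 25 weeks A4 (2577) and rd1 5 weeks A1 (3088) were on, both above rd1 P13 B1. The median was at least 16.8-fold higher in the endothelial-like cells.

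Collagen XVIII (Col18a1), the basement membrane collagen whose end fragment is endostatin, was on in 4 of 5 endothelial-like and 11 of 22 Müller-like cells. It read 109, 15795 and 3959 in congenic FVB and 6881 and 12707 in rd1 P13 cells, so that congenic FVB A3 lay far below the rest, and 24.2 to 14479.7 (median 2038) in Müller-like cells. The medians were 3.38-fold apart. Its relative Col15a1 was on in no cell.

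The 4 collagens with higher medians in Müller-like cells were Col9a1, Col9a3, Col2a1 and Col23a1. Col9a1 was on in all 22 Müller-like cells (exact 95% interval 84.6 to 100%), at 3972 to 65231 (median 26471). In the endothelial-like cells it read 873, 3269 and 75.6 in congenic FVB and 917 and 47.1 in rd1 P13 cells, on in congenic FVB A4 alone and below every Müller-like cell. The median was at least 26.5-fold lower there. Col9a3, another chain of the type IX trimer, was on in 11 of 22 Müller-like cells and read 419, 56.2 and 28.0 in congenic FVB and 6724 and 24.0 in rd1 P13 cells in the endothelial-like cells. Its difference of -1.37 (log2) fell under 2-fold, to -0.75, when any 1 of the 11 Müller-like cells with Col9a3 on was left out. Col9a2, the third chain, was on in rd1 P13 B3 (3417), the endothelial-like rd1 P13 A1 (2852) and rd1 5 weeks A1 (2235).

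Col2a1, the fibrillar collagen of the vitreous, was on in 12 of 22 Müller-like and 0 of 5 endothelial-like cells, where it read 60.5, 107 and 8.4 in congenic FVB and 228 and 131 in rd1 P13 cells. The median was at least 2.23-fold lower in the endothelial-like cells, with a difference of -0.15 on the log2 scale when the floor was 2000. Col23a1, a collagen anchored in the cell membrane, was on in 19 of 22 Müller-like cells at up to 44123 and in 1 of 5 endothelial-like cells (rd1 P13 B1, 4965). Its median was at least 12.8-fold lower there. The 3 Müller-like cells without it were adult WT MG1 (556), Rhod-ko 25 weeks A1 (1054) and rd1 P13 A4 (136).

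Other collagens were on in few cells each, all of them Müller-like for the 3 that reached 3 cells. Col16a1, a fibril-associated collagen, was on in 6 cells, 3 of them Rhod-ko 8 weeks cells at 4825 to 12429. Col27a1, a fibrillar collagen of cartilage, was on in 5 cells at up to 5929.5. Col22a1, a collagen of tissue junctions, read 26299 and 21796 in adult WT MG22 and MG3, 4672 in Rhod-ko 8 weeks cell 8, and at most 1334 in all other cells.

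Several collagens were on in 1 or 2 cells each. Col8a1, a short-chain collagen of the vessel wall and of Descemet's membrane, read 17344 in the endothelial-like rd1 P13 B1 and was on nowhere else. Col6a3, a chain of the microfibrils of type VI collagen, was on only in the endothelial-like rd1 P13 cells A1 (3647) and B1 (4854), and Col6a1 only in rd1 5 weeks A1 (3989). Type I collagen, the main fibrillar collagen of fibroblasts, appeared as Col1a2 in rd1 5 weeks A5/A6 (19173) and Rhod-ko 25 weeks A4 (4881) and as Col1a1 in rd1 5 weeks A1 (2468), never both chains in 1 cell. Col5a1 was on in Rhod-ko 25 weeks A4 (11370.4) and A1 (4161), Col19a1 in adult WT MG16 (6894) and Rhod-ko 25 weeks A3 (2794), and Col7a1, the anchoring fibril collagen, in rd1 5 weeks A1 (3791) and Rhod-ko 25 weeks A2 (2085). Col5a2, Col5a3, Col11a2 and Col20a1 were on in 1 or 2 cells at 2249.7 to 4280.1.

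The rd1 P13 condition held both classes, 2 endothelial-like and 3 Müller-like cells of 1 strain, genotype and age. These cells are also part of the comparison over all cells, so the values are not independent of it. There 13 of 59 genes had an at least 2-fold higher median in the endothelial-like cells (all genes 7.65%) and 4 of 59 a lower one (all genes 6.18%). The 4 lower ones were Col2a1, Col9a1, Col9a3 and Col23a1. The higher ones were Col4a1, Col4a2, Col18a1, Lama4, Lama5, Lamb1, Lamb2, Agrn, Fn1, Sparcl1, Col6a3, Col8a1 and Hspg2. Col4a2 read 17612 and 21228 against 6.5, 69.4 and 124, with a median at least 19.3-fold higher. Lamb2 was at least 10.2-fold, Lama4 at least 8.68-fold and Fn1 6.82-fold higher, all without overlap. With 2 against 3 cells, the share of all genes without overlap was not computed. Col9a1 was at least 33.6-fold lower, at 47.1 and 917 against 13875 to 35718.

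Without rd1 P13 B4 or A4 the Lamb2 difference was 2.63 (log2) in place of 3.35, and without B1 that of Lama4 was 2.34 in place of 3.12. Nid1 and Lamc1 missed the 2-fold rule in this comparison, at 0.89 and 0.66 on the log2 scale, although both endothelial-like cells lay above all 3 Müller-like cells. Nid1 read 1734 and 1983 against at most 34.9, and the floor of 1000 sets the size of this difference. Col8a1 rested on cell B1 alone and gave a difference of 0 without it. Leaving out Müller-like cell B4 or B3 took Col23a1 (to -0.78 or -0.63) and Col9a3 (to -0.82 or -0.89) under 2-fold, so that 2 of 59 genes were lower. Rod markers were on in both classes here, 8 and 9 of 13 in the endothelial-like and 8 to 10 in the Müller-like cells.

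Changes with rod and cone death were asked of the Rhod-ko cells against adult WT. All of these cells were Müller-like, with 1 to 4 endothelial markers on, and Col4a1 and Nid1 were on in none of the 15 cells and Col4a2 in adult WT MG3 alone. At 8 weeks 5 of 59 genes had an at least 2-fold higher median than in adult WT (all genes 6.17%), namely Agrn, Col16a1, Col18a1, Col9a3 and Lamb2, and 1 of 59 a lower one (all genes 5.12%), Col9a1. These are shares of 8.47% and 1.69%. The 3 comparisons with adult WT share its 5 cells and are not independent.

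Col9a1 read 3972, 6290.0, 7569, 10402 and 17641 in the Rhod-ko 8 weeks cells and 31733, 31996, 33066, 50928 and 65231 in adult WT, without overlap and with a 4.37-fold lower median. Over all alternatives the difference lay between -2.46 and -1.67 on the log2 scale. Lamb2 read 233, 1516, 4566, 7506 and 8527 against 32.5, 34.5, 57.5, 221 and 272; it was on in 3 of 5 and 0 of 5 cells, and 1 Rhod-ko cell lay among the adult WT cells. Its median was at least 4.57-fold higher. Col9a3 was on in 4 of 5 Rhod-ko cells and 2 of 5 adult WT cells, with a median at least 12.3-fold higher, and Col16a1 in 3 and 1 of 5 cells, with a median at least 4.82-fold higher, both with overlap.

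The sizes of several of these differences moved with 1 cell. The Lamb2 difference of 2.19 (log2) was 1.40 without Rhod-ko cell 2 or 3. That of Col16a1 (2.27) was 1.27 without cell 2 or 3 and 1.58 without cell 8, and that of Col9a3 (3.62) was 1.96 without adult WT MG1, MG15 or MG3. The Agrn difference of 1.48 (log2) was 0.36 after quantile normalization, and 0.56 without adult WT cell MG1, MG22 or MG15, but 2.30 without Rhod-ko cell 7 or 8. Col18a1 had a difference of 1.17, and 0.59 with 1 probe set per gene. Rhod-ko 8 weeks cells 7 and 8 had 9 and 8 rod markers and 6 and 1 microglial markers on. Without them 5 of 59 genes were higher and 2 of 59 lower, Col9a1 and Lama5, and the Agrn difference was 3.12 on the log2 scale in place of 1.48. The shares of all genes were not computed without these cells. Summed pericyte and mural markers were 5926 to 23963 in Rhod-ko 8 weeks and 1414 to 14192 in adult WT cells, with 1 or 2 of 10 markers on per Rhod-ko cell. The part of these other signals in the differences was not tested.

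At 25 weeks 3 of 59 genes were at least 2-fold higher than in adult WT (all genes 7.9%), Agrn, Col18a1 and Col2a1, and 1 of 59 lower (all genes 3.7%), Lama5. Col2a1 had the largest difference of these 4. It read 6871, 8868, 9966, 13610.1 and 16251, on in 5 of 5 cells, against 11.7, 20.4, 20.5, 891 and 18589 in adult WT, where only MG15 was on. The median was at least 9.97-fold higher, and no alternative took it below 2-fold. Col18a1 was likewise on in all 5 cells, at 2142, 2818, 3555, 6467 and 8909.5, and in MG15 alone of adult WT. Agrn was on in 5 of 5 against 2 of 5 cells. Of all genes, 2670 to 3123 were on in the Rhod-ko 25 weeks cells and 1847 to 2603 in the adult WT cells, without overlap. The part of this shift in the 3 higher genes was not tested. The differences of Agrn and Col18a1, 2.34 and 1.82 on the log2 scale, fell to 0.79 and 0.88 after quantile normalization and to 0.38 and 0.78 when arrays were scaled to the same 90th percentile. Without adult WT MG1, MG22 or MG15 the Agrn difference was 1.42. Lama5 had a difference of -1.04 on the log2 scale, and of -0.52 without adult WT cell MG22 or MG15.

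**Figure D4:**
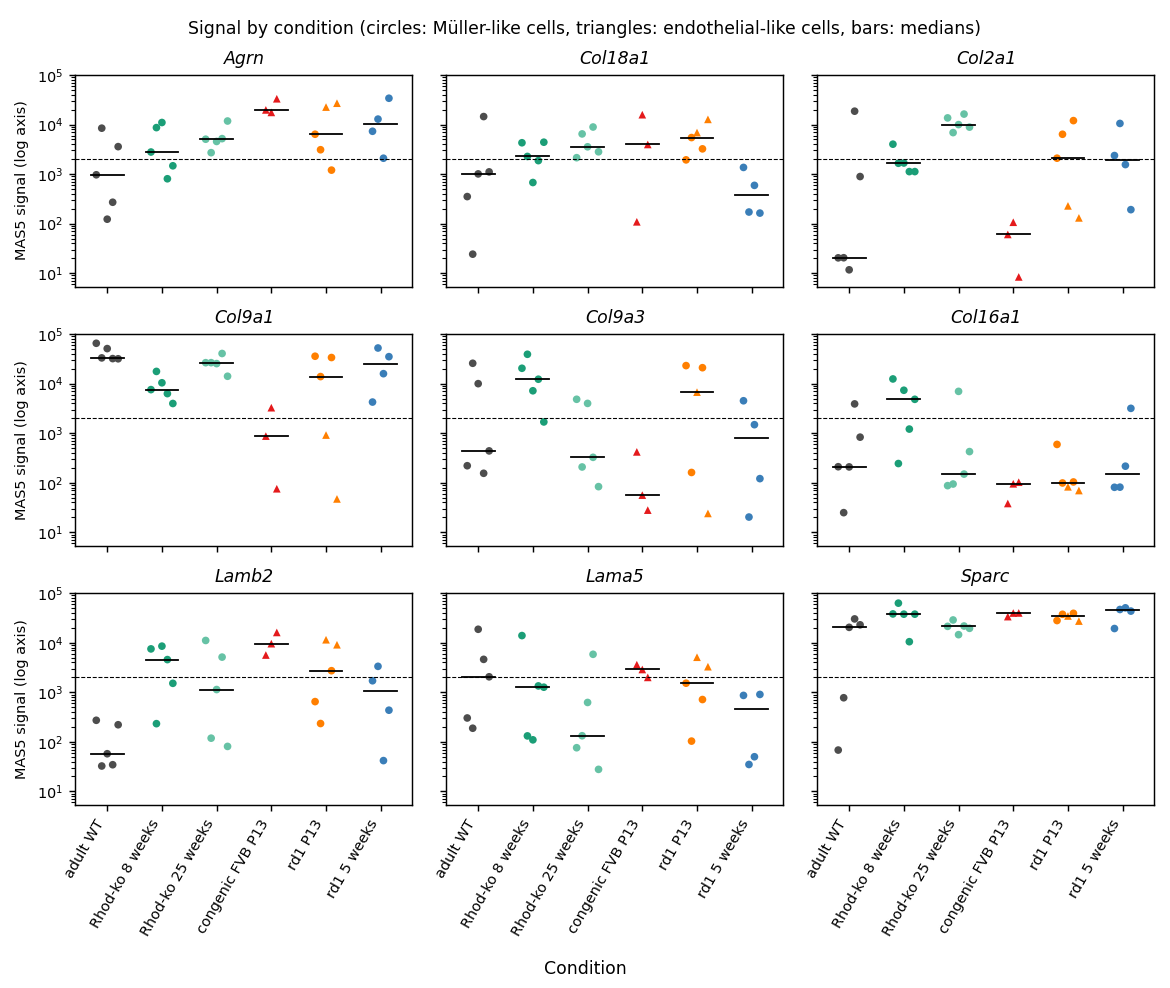
MAS5 signal (log axis) of 9 genes by condition, with 1 point per cell; circles are Müller-like and triangles endothelial-like cells, bars are group medians and the dashed line marks a signal of 2000. Col9a1 is lower in the 5 Rhod-ko 8 weeks cells than in the 5 adult WT cells, and Col2a1 is on in all 5 Rhod-ko 25 weeks cells.

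In rd1 cells at 5 weeks 2 of 59 genes were at least 2-fold higher than in adult WT (all genes 6.35%), Agrn and Sparc, and 1 of 59 lower (all genes 4.25%), Lama5. Agrn read 2091, 7311, 12868 and 33929.8, on in 4 of 4 cells, against 123, 270.2, 968, 3579.9 and 8441, and the median was at least 9.70-fold higher. Sparc read 19341, 43456, 46845 and 50591 against 68.2, 776, 20427, 22983 and 30219.5, 2.21-fold higher in the median, with overlap. This difference of 1.14 (log2) was 3.23 without adult WT MG22, 3.32 without MG15 or MG3, and 5.50 with 1 probe set per gene. That of Agrn was 2.36 in place of 3.28 without MG1, MG22 or MG15. Lama5 was on in none of the 4 cells, and its difference of -1.04 (log2) was -0.52 without adult WT cell MG22 or MG15. Strain and age differ along with the genotype in this comparison.

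The comparison of rd1 with congenic FVB cells at P13, meant for the time of rod death, set 2 endothelial-like and 3 Müller-like cells against 3 endothelial-like ones. As labelled, 4 of 59 genes were higher in rd1 (all genes 4.79%), Col2a1, Col9a1, Col9a3 and Col23a1, and 9 of 59 lower (all genes 6.41%), Col4a1, Col4a2, Lama4, Lamb2, Lamc1, Nid1, Agrn, Fn1 and Sparcl1. These are the same cells as in the comparison of the classes, which the 2 labelled groups hold in unequal parts. Col4a2, for example, read 19383, 24335 and 28599.7 in congenic FVB cells, 17612 and 21228 in the endothelial-like rd1 cells and at most 124 in the Müller-like rd1 cells. Without rd1 P13 A4 or B3 the Agrn difference was -0.72 in place of -1.63, and without B4 or A4 that of Lamb2 was -0.94 in place of -1.81, both under 2-fold. The Col2a1 difference of 1.07 (log2) was 0.53 without A4 or B3. With a floor of 2000 it was 0.07, and that of Lamc1 was -0.87 in place of -1.5. With 1 probe set per gene the Col23a1 difference was 0.0 in place of 2.31. Without the endothelial-like cells no congenic FVB cell was left, so that genotype and class cannot be told apart in this comparison.

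Among the endothelial-like cells alone, 7 of 59 genes were at least 2-fold higher in the 2 rd1 than in the 3 congenic FVB cells (all genes 5.5%) and 3 of 59 lower (all genes 3.9%). The higher ones were Col18a1, Col23a1, Col6a3, Col8a1, Col9a3, Hspg2 and Lamb1, and the lower ones Lamc1, Nid1 and Sparcl1. Nid1 read 1734 and 1983 against 3793, 4302 and 5200.2, 2.32-fold lower, and Lamc1 1364 and 1831 against 3023, 3647 and 4207, 2.31-fold lower, both without overlap. The share of all genes without overlap was not computed for 2 against 3 cells. Col6a3 and Hspg2 were on in both rd1 cells and in none of the congenic FVB cells, at least 4.21-fold and 3.49-fold higher. With a floor of 2000 the Hspg2 difference was 0.80 on the log2 scale, under 2-fold, here and between the classes of rd1 P13. Col4a1 and Col4a2 overlapped. Leaving out rd1 cell B1 took Col8a1, Col18a1, Col23a1 and Sparcl1 under 2-fold (0, 0.80, 0 and -0.14 on the log2 scale), and leaving out rd1 cell A1 took Col9a3 and Lamc1 under it (0 and -0.99). Without congenic FVB cell A3 the differences of Col18a1 and Lamb1 were 0.24 and 0.59, and without A4 that of Lamb1 was 0.65.

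Between the 4 rd1 cells at 5 weeks and the 3 Müller-like rd1 cells at P13, of the same strain and genotype, 1 of 59 genes was higher at 5 weeks (all genes 3.66%), Agrn, and 4 of 59 lower (all genes 6.86%), Col18a1, Col2a1, Col9a3 and Fn1. Col18a1 read 163, 172, 592 and 1362 at 5 weeks and 1935, 3229 and 5459 at P13, without overlap, with a median at least 3.23-fold lower. With 1 probe set per gene both medians of Col18a1 lay at the floor and the difference was 0. The others overlapped between the ages. Col2a1 fell to a difference of -0.93 without rd1 P13 cell B3, and Fn1 to -0.74 without B4. Rod markers were on in 8 to 10 of 13 at P13 and in 0 to 4 at 5 weeks.

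Of 27 measured genes listed for the making of collagen, enzymes and other proteins, 9 had an at least 2-fold higher median in the endothelial-like than in the Müller-like cells (all genes 8.41%). A lower median was found for 0 (all genes 2.77%), and the median difference over the 27 was 0. Serpinh1, the collagen chaperone HSP47, was on in 5 of 5 endothelial-like cells (12913 to 29488) and 11 of 22 Müller-like cells (39.5 to 20653), a difference of 3.63 on the log2 scale. Tgm2, a transglutaminase that cross-links matrix proteins, differed by 3.76, the lysyl hydroxylase Plod1 by 2.71, P4hb, a subunit of prolyl hydroxylase, by 1.96, Crtap by 1.47 and the prolyl isomerase Ppib by 1.42. Within rd1 P13, 4 of the 27 were higher (Colgalt1, Serpinh1, Plod1 and Tgm2, all genes 7.65%) and 1 lower (Bmp1, all genes 6.18%). In Rhod-ko 8 weeks 5 were higher than in adult WT and 1 lower (all genes 6.17% and 5.12%), in Rhod-ko 25 weeks 4 and 1 (7.9% and 3.7%), and in rd1 at 5 weeks 0 and 1 (6.35% and 4.25%). The lower one was P4ha2 each time, on in 3 of 5 adult WT cells and in none of the cells set against them.

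Receptors for these matrix proteins were divided. Of 21 measured, 5 were higher and 3 lower in the endothelial-like cells (all genes 8.41% and 2.77%). Itga5, a subunit of the fibronectin receptor, read 2979 to 6289 in the endothelial-like and at most 662 in the Müller-like cells. Itga6, a subunit of laminin receptors, was on in 4 of 5 against 0 of 22 cells, and Cd151, a tetraspanin partner of laminin-binding integrins, in 5 of 5 against 13 of 22. Lower were Ddr1, a collagen receptor kinase on in 21 of 22 Müller-like and 1 of 5 endothelial-like cells (-5.06 on the log2 scale), Itgav (-3.94) and its partner Itgb5 (-1.61). Within rd1 P13 the counts were 5 higher and 4 lower (all genes 7.65% and 6.18%). Of 19 proteases and inhibitors of matrix breakdown, 2 were higher, a share near that of all genes, and 1 lower (all genes 8.41% and 2.77%). The higher ones were Adam10 (1.72 on the log2 scale) and the plasminogen activator Plat (1.77), and the lower one the aggrecanase Adamts5 (-1.62). Within rd1 P13, 4 of the 19 were higher and 2 lower (all genes 7.65% and 6.18%).

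Several genes had more than 1 probe set, and these did not always read alike. One Col9a1 probe set was on in 23 cells and the other in 11, with medians of 26471 and 2126 in the Müller-like cells. Of 3 Lama5 probe sets, 2 each gave the highest signal in 12 cells and these were on in 7 and 9 cells. For Lamc1, the probe set on in 3 cells was on in endothelial-like cells only, and another was on in Rhod-ko 8 weeks cell 7 alone. Of the Fn1 probe sets, 1 was on in 12 cells and 1 in a single cell, and the 2 of Col4a1 were on in 6 and 5 cells, in all 5 endothelial-like cells in both cases.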

How the data were processed

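Single cells were lysed, reverse transcribed from an oligo dT primer, tailed with poly(A) and amplified by 35 cycles of PCR, and each cell's cDNA was read on 1 Affymetrix 430 2.0 mouse array. The deposited values are signal intensities on a linear scale, which the authors computed with MAS 5.0 and brought to 1 common trimmed mean. This mean was checked and was 500 on all 28 arrays. Of 45101 probe sets, 34958 carry 1 gene symbol in the array annotation, 932 several and 9211 none, and 34754 of the first kind matched the RefSeq gene table. Only these single-symbol probe sets were used, and the highest probe set stood for the gene, cell by cell, a choice taken from the study's methods. Because the cDNA was primed at the poly(A) tail, probe sets far from the end of a long transcript may read low.

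Genes with signals of 2000 or more were on. Group medians of log2 signals, floored at 1000, were compared, and a difference of 1 (2-fold) served as the rule of size in place of a test. A fold against a group with its median under the floor is a lower bound, written "at least". In groups of even size the median is taken over logs. Shares of all genes without overlap also required the 2-fold rule and were computed only for the classes over all cells. Shares of cells have exact (Clopper-Pearson) 95% intervals. A cell was endothelial-like if a larger share of 19 endothelial than of 19 MGC markers was on. The genes, marker lists and pathway lists were chosen with earlier results of these data known. The pathway lists held genes for the making of collagen, matrix receptors, and matrix proteases and inhibitors. Further marker lists held pericyte, fibroblast, astrocyte, microglial and rod markers. Astrocyte markers were on in at most 3 of 5 in any cell. Genes named with values are those on in at least 3 cells, the 2 with the highest signals of each role and all type IV collagens, laminins, nidogens and SPARC genes, and from the other lists at most 6 each. Lists held further genes not analysed here, among them Fkbp10, Loxl2, Adamts2, Itga11 and Mmp15.

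Promoter windows came from RefSeq. Protein sequences were not used here. Alternatives were floors of 500 and 2000, thresholds of 1000 and 10000, group means, arrays scaled to 1 shared 90th percentile, quantile normalization, 1 probe set per gene, and leaving out each cell. Müller-like P13 cells alone as the reference, leaving out Rhod-ko 8 weeks cells 7 and 8, and A5 and A6 as separate cells were added after seeing the data. The analysis ran with SciPy 1.17.1, NumPy 2.4.6 and pandas 2.3.3 under Python 3.11.15, with matplotlib 3.10.9 for figures, and the comparison was tested on simulated data.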

Additional observations from a re-analysis of the deposited data

Results flagged for a closer look

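Within the conditions of 4 or 5 cells, 84 groups of values were screened for a single cell that stood apart from the others by Dixon's ratio of log2 signals floored at 1000, and 30 did. In 19 of the 30 only 1 cell of the group lay above the floor, which by itself sets the ratio to its highest value, so the usual chance rate of about 1 in 20 does not apply and the screen is a description, not a test. The values were those of the 23 genes on in at least 3 cells and the number of genes on, and the 3 congenic FVB cells were too few to be examined. Each is given with no explanation.

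In adult WT, cell MG15 stood apart for Col16a1 (3898), Col18a1 (14479.7) and Col2a1 (18589), cell MG3 for Col27a1 (4391), Col4a2 (2071) and Lama2 (2363), cell MG16 for Fn1 (12117) and cell MG1, on the low side, for Col23a1 (556). In Rhod-ko 8 weeks, cell 2 had 12 of the 59 genes on and a Lama5 signal of 13933, cell 8 a Col22a1 signal of 4672, and cell 7 a high Lamc1 signal (2391) and a low Sparc signal (10485). Cell 7 also had 6 of 13 microglial and 9 of 13 rod markers on.

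In Rhod-ko 25 weeks, the cells that stood apart were A3 for Col16a1 (6978), A1 on the low side for Col23a1 (1054), A5 for Col9a2 (1303.5) and Lama1 (6018), A2 for Fn1 (4127) and A4 for Lama5 (5840.2). In rd1 at P13 they were the Müller-like cells A4 for Col27a1 (2266) and B3 for Lama2 (2249).

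In rd1 at 5 weeks, cell A1 stood apart for Col18a1 (1362), Col4a1 (1209), Col4a2 (4981.5), Col9a2 (2234.5), Sparcl1 (3088) and, on the low side, Sparc (19340.5). This cell had 2 of 19 endothelial and 18 of 19 MGC markers on, and 13 of the 59 genes. It also had 3208 of all genes on, the most of any cell, against 1858 to 2485 in the other cells of this condition. Cell A8 stood apart for Col16a1 (3171) and Fn1 (4131), and A5/A6 for Col27a1 (5929.5).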

How the results depend on the processing

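Of 1323 values of the 74 gene differences of at least 2-fold, 0 changed sign under an alternative, although some fell to 0, 1275 moved by less than 1 SD between cells and 48 by more, and 42 of the 74 differences stayed at 2-fold or above throughout. With the floor at 2000, the genes lower in endothelial-like cells numbered 2, those higher in Rhod-ko 8 weeks 3, those lower in Rhod-ko 25 weeks and in rd1 5 weeks against adult WT 0 each, those higher in rd1 among endothelial-like cells 4, and those lower in rd1 at 5 weeks than in Müller-like P13 cells 2. Of the genes higher in endothelial-like cells over all cells, Lama5, Lamb1, Lamc1 and Nid1 fell under 2-fold at the floor of 2000. With the floor at 500, 6 were higher in Rhod-ko 25 weeks. With group means, 2 were lower in Rhod-ko 8 weeks, 5 higher in Rhod-ko 25 weeks, 4 higher and 3 lower in rd1 5 weeks against adult WT, and 3 higher in rd1 at 5 weeks against P13. After quantile normalization, 2 were lower in Rhod-ko 8 weeks, 1 higher in Rhod-ko 25 weeks and 2 lower in rd1 5 weeks. With the same 90th percentile, 1 was higher and 3 lower in Rhod-ko 25 weeks, and 4 higher and 2 lower in rd1 at 5 weeks against P13. With 1 probe set per gene, 2 were lower in Rhod-ko 8 weeks, 5 higher in Rhod-ko 25 weeks and 2 higher in rd1 at 5 weeks against P13. With A5 and A6 as separate cells that last count was also 2, and without Rhod-ko 8 weeks cells 7 and 8 there were 2 lower in that condition. With genes called on at 10000, the median was 7 genes per endothelial-like and 4 per Müller-like cell. The median difference of all genes was 0 under every scaling. The cause of these shifts was not tested, and the shares of all genes at least 2-fold apart were not computed under the alternatives.

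Leaving out 1 cell moved 39 of the 74 differences by over 1.5 times in at least 1 case. It gave 2 to 4 genes lower in endothelial-like rd1 P13 cells (2 without B4 or B3), 1 to 3 lower in Rhod-ko 8 weeks (3 without adult WT MG1 or MG16, 2 without MG15), 3 to 5 higher in Rhod-ko 25 weeks (5 without A2, A3 or A5) and 0 to 3 lower (0 without MG22, 3 without MG1, 2 without MG16, MG15 or MG3). It gave 0 to 3 lower in rd1 5 weeks against adult WT (0 without MG22, 3 without MG1, and 2 without MG16, MG15, MG3, A5/A6 or A8), and 1 to 2 higher in rd1 at 5 weeks against P13 (2 without A1, B1, B4 or B3). Over all cells, 12 genes were higher in endothelial-like cells each time, and 3 or 4 were lower.

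No paired analysis was possible because cell numbers only name cells and no test was run. Each condition is 1 set of cells with no animal named, each cell was read by 1 array after 35 cycles of PCR, and signals under 1000 carry no order here. The counting intervals of 5 against 22 cells cover counting error only. Fewer transcripts in a cell and transcripts lost in amplification cannot be told apart in these values.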
